A study of Mus musculus with 9 samples.

Results

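The genes of the muscle acetylcholine receptor and of the machinery that gathers it at the neuromuscular junction were followed in primary myoblasts, muscle precursor cells grown from mouse muscle. They were the rows of the deposited table whose symbol was Chrna1, Chrnb1, Chrnd, Chrng, Chrne, Agrn, Lrp4, Musk, Dok7 or Rapsn, which gave 10 genes of the 53715 listed. All cells were of the strain C57BL/10ScSn-Dmdmdx/J, which carries the mdx mutation of the dystrophin gene, and all were at passage 1. Of 9 libraries, 3 were from cells with glycine at 0.2 mM and 6 from cells with 0.8 mM, and none was from cells with an intact dystrophin gene. The comparison asks how RNA levels differ between these glycine levels. Whether the libraries are separate cultures or animals is not stated, so a p-value measures only the spread between these samples, and that spread may be technical. Each glycine level has its own library series in the labels, and an effect of the series cannot be told apart from that of glycine.

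At the neuromuscular junction the motor nerve releases acetylcholine onto a dense patch of receptors in the muscle membrane. The receptor is a ring of alpha, beta and delta subunits with either the gamma subunit (Chrng), which is typical of fetal and denervated muscle, or the epsilon subunit (Chrne), which replaces gamma in adult innervated fibres. Agrin (Agrn) binds LRP4 (Lrp4), which activates the receptor tyrosine kinase MuSK (Musk) together with its adaptor DOK7 (Dok7), and rapsyn (Rapsn) then anchors the receptors in clusters. Receptor subunit genes are classic targets of the myogenic factors, such as MyoD and myogenin, which bind E-boxes of the form CANNTG. Some genes transcribed at the synapse carry the N-box CCGGAA, which is bound by GABP.

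The start regions of the alpha, gamma, beta and epsilon subunit genes are printed to show these letters beside the values that follow. Each is the 250 bases before the RefSeq start site (GRCm38.p6), read 5′ to 3′ on the strand of the gene, and capitals mark CANNTG and CCGGAA. The windows lie at chr2:73580339-73580588 (minus strand) for Chrna1, chr1:87205561-87205810 (plus) for Chrng, chr11:69795938-69796187 (minus) for Chrnb1 and chr11:70619195-70619444 (minus) for Chrne. Gene spans given further on are from GENCODE, whose Chrng begins 1154 bases before the RefSeq start with the first exon of another transcript, and 1 of its 5 Chrng transcripts starts at the RefSeq site. The GENCODE starts of Chrnb1 and Chrne lie 6 and 22 bases before the RefSeq starts, and that of Chrna1 is the same.
Chrna1: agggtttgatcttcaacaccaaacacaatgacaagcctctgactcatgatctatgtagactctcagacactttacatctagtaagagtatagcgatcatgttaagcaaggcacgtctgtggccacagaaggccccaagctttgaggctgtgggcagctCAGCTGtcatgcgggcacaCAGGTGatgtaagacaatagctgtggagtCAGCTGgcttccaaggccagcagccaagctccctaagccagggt
Chrng: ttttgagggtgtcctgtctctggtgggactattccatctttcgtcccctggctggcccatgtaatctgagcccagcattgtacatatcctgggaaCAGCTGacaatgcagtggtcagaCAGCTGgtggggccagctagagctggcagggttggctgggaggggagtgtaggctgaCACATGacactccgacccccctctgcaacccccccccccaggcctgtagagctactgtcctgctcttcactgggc
Chrnb1: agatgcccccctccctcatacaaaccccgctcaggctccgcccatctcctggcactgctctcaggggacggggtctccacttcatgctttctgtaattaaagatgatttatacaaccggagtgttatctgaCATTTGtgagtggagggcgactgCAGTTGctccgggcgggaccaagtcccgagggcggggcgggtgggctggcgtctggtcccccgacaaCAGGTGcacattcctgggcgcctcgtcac
Chrne: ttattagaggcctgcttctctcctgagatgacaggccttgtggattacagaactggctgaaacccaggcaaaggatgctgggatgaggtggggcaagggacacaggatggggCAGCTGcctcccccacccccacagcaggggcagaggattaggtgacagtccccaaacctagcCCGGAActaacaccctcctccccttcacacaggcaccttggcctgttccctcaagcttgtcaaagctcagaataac
Each of the Chrna1, Chrng and Chrnb1 windows held 3 matches to CANNTG. The form CAGCTG, which is one case of CANNTG, occurred in Chrna1 at 92 and 44 bases before the start, in Chrng at 155 and 132, and in Chrne at 138; the matches in Chrnb1 had other middle bases. The N-box letters occurred in Chrne, 76 bases before the start. The Musk window held 3 matches to CANNTG with CAGCTG 68 bases before the start, and the windows of Agrn and Dok7, with 2 starts each, held at most 1 match to CANNTG and none to CAGCTG. Of 32851 mouse promoter windows of the same length, searched on both strands, 66.2% held CANNTG and 12.2% held at least 3 matches, 13.0% held CAGCTG and 1.26% held it at least 2 times, and 12.0% held CCGGAA. The RefSeq table gave windows for 7 of the 10 genes, and Chrnd, Rapsn and Lrp4 are only named.

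Values were TPM, a level per transcript length that keeps no record of depth. A gene was tested if its level was 1 TPM or more in 3 or more libraries, and it passed at a limma adjusted p under 0.05 over all 10049 genes tested. Changes are differences in log2(TPM + 1) between the group means, 0.8 mM minus 0.2 mM, a scale that compresses changes at low TPM, and "rose" and "fell" are used only of genes that passed. Over all genes tested 26.6% passed, 16.7% upward (1683 genes) and 9.81% downward (986 genes), with a median change of 0.06. Scaling by median ratios gave 1419 that rose and 1279 that fell, and quantile normalization 1324 and 1335.

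At 0.8 mM glycine the alpha, delta and gamma receptor subunits, rapsyn and MuSK rose, each to between 1.73 and 1.91 times its level at 0.2 mM, while the beta subunit stood at the same mean level in both groups. Of the 10 genes, 8 could be tested, and of these 5 rose, 0 fell and 3 did not pass, where 16.7% of all genes tested rose and 9.81% fell. The epsilon subunit and Lrp4 stayed under the filter. The groups did not overlap for 6 of the 8, against 28.2% of all genes tested. In 5 of them the 0.8 mM libraries were higher, against 17.6%, and in 1, Agrn, they were lower, against 10.6%. The median change of the 8 was 0.67. In these cells fewer cells of a type and less RNA per cell cannot be told apart.

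**Figure D1:**
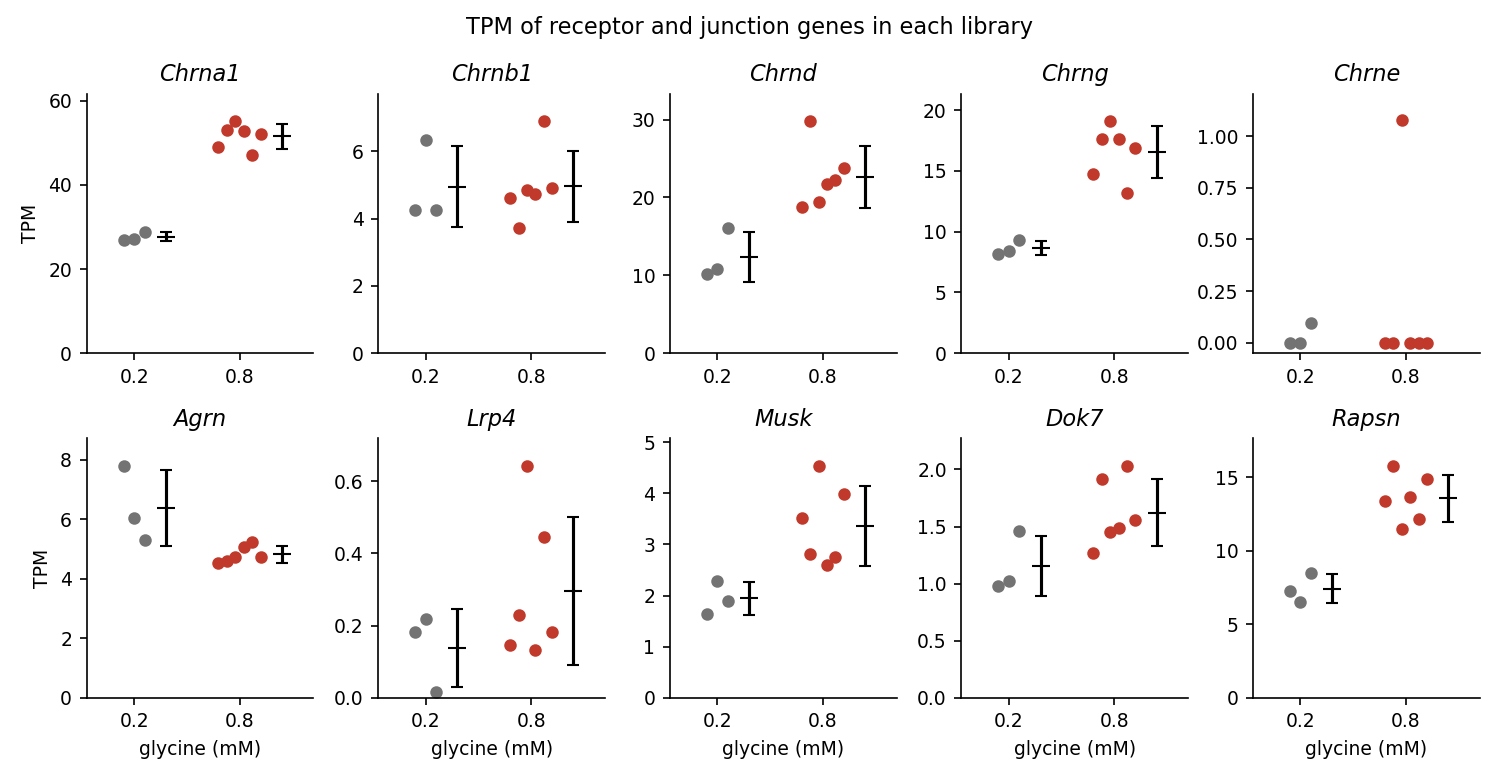
TPM of each of the 10 genes (vertical axes, each starting at 0 except for a small margin below 0 for Chrne) by library, with 3 grey points for 0.2 mM and 6 red points for 0.8 mM glycine, and black bars for the mean and SD except for Chrne. The groups lie apart for Chrna1, Chrnd, Chrng, Musk and Rapsn, with 0.8 mM higher, and for Agrn, with 0.8 mM lower.

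The alpha subunit, which carries most of the acetylcholine binding site and is present in every muscle receptor, was the most abundant of the 10 genes in every library. Chrna1 lies on chromosome 2 from 73563215 to 73580338 (minus strand, GRCm38). It was at 26.95, 27.1 and 28.9 TPM in the 0.2 mM libraries, and at 0.8 mM the lowest was 47.1, the median 52.4 and the highest 55.1 TPM. Every 0.8 mM library thus lay above every 0.2 mM library, with a gap wider than the range of either group. The mean rose from 27.6 ± 1.09 (SD, n = 3) to 51.5 ± 2.95 TPM (SD, n = 6), 1.86 times, a change of 0.87 on the log2 scale (SE 0.07, adjusted p = 5.68e-06 by limma). Among the log2 fold changes of all genes tested it stood at the 93.7th percentile.

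The gamma and delta subunits lie next to each other on chromosome 1 on the plus strand, Chrnd from 87190607 to 87200070 and Chrng from 87204657 to 87212694, with 4586 bases between them. Chrng, which makes the fetal form of the receptor, was at 8.19, 8.45 and 9.33 TPM at 0.2 mM, and at 0.8 mM the lowest was 13.2, the median 17.3 and the highest 19.1 TPM. The groups did not overlap. Its mean rose from 8.66 ± 0.595 (SD, n = 3) to 16.5 ± 2.16 TPM (SD, n = 6), 1.91 times, a change of 0.85 on the log2 scale (SE 0.12, adjusted p = 0.000302 by limma).

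Chrnd, a subunit of both the fetal and the adult receptor, was at 10.2, 10.9 and 16.1 TPM at 0.2 mM, and at 0.8 mM the lowest was 18.8, the median 22.0 and the highest 29.8 TPM. Replicate 3 was the high library at 0.2 mM and replicate 2 at 0.8 mM, and the groups still did not overlap. The mean rose from 12.4 ± 3.20 (SD, n = 3) to 22.6 ± 3.97 TPM (SD, n = 6), 1.83 times, a change of 0.83 on the log2 scale (SE 0.16, adjusted p = 0.00333 by limma). This spread was wider than that of Chrna1, and the 95% interval of the change ran from 0.46 to 1.19, against 0.72 to 1.03 for Chrna1.

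The beta subunit (Chrnb1, chromosome 11, 69784036 to 69795943, minus strand), also a part of both receptor forms and a subunit that rapsyn contacts, did not pass. Chrnb1 was at 4.25, 6.34 and 4.25 TPM at 0.2 mM, and at 0.8 mM the lowest was 3.73, the median 4.78 and the highest 6.88 TPM. The 0.2 mM libraries lay within the range of the 0.8 mM libraries, with replicate 2 the high one at 0.2 mM and replicate 5 at 0.8 mM. The means were 4.95 ± 1.21 (SD, n = 3) and 4.95 ± 1.04 TPM (SD, n = 6), a change of 0.00 on the log2 scale (SE 0.17, 95% interval -0.37 to 0.38, adjusted p = 0.992 by limma). The sign of this difference turned with the processing, between -0.13 and 0.16 over 22 alternatives, and in none of them did it pass.

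The adult subunit, epsilon, was barely present. Chrne (chromosome 11, 70614883 to 70619216, minus strand) was listed at 0 in 7 of the 9 libraries. The others were 0.2 mM replicate 3 at 0.0946 TPM and 0.8 mM replicate 3 at 1.08 TPM. With 1 library at 1 TPM it did not reach the filter, and without a filter its adjusted p was 0.769 (limma). No fold change is given, since an exact 0 in a table of TPM does not show how many reads were looked through.

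Chrng was above Chrne in 9 of 9 libraries. On the log2(TPM + 1) scale the mean difference within a library was 3.71 (two-sided exact sign-flip permutation p = 0.00391, the smallest that 9 libraries allow). The difference was 6.56 with a pseudocount of 0.1. The test pools both glycine levels. With the same sign in 9 of 9 libraries, p takes its smallest value whatever the size of the difference. Gamma made up 100% of the sum of the gamma and epsilon levels in 7 libraries, 99.0% in 0.2 mM replicate 3 and 94.7% in 0.8 mM replicate 3. The log2 ratio of (Chrng TPM + 1) to (Chrne TPM + 1) went from 3.23 ± 0.02 (SD, n = 3) to 3.95 ± 0.36 (SD, n = 6), a difference of 0.72 (two-sided exact permutation p = 0.0238, the smallest possible here). With Chrne mostly listed at 0 this ratio follows the Chrng level and the pseudocount, and the difference was 0.65 with p = 0.476 (exact permutation) with a pseudocount of 0.1. It also missed the threshold with a pseudocount of 0.5, with median ratio scaling, with quantile normalization, without ribosomal RNA genes and without any 1 of the 0.2 mM libraries, where p cannot go below 0.0714.

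**Figure D2:**
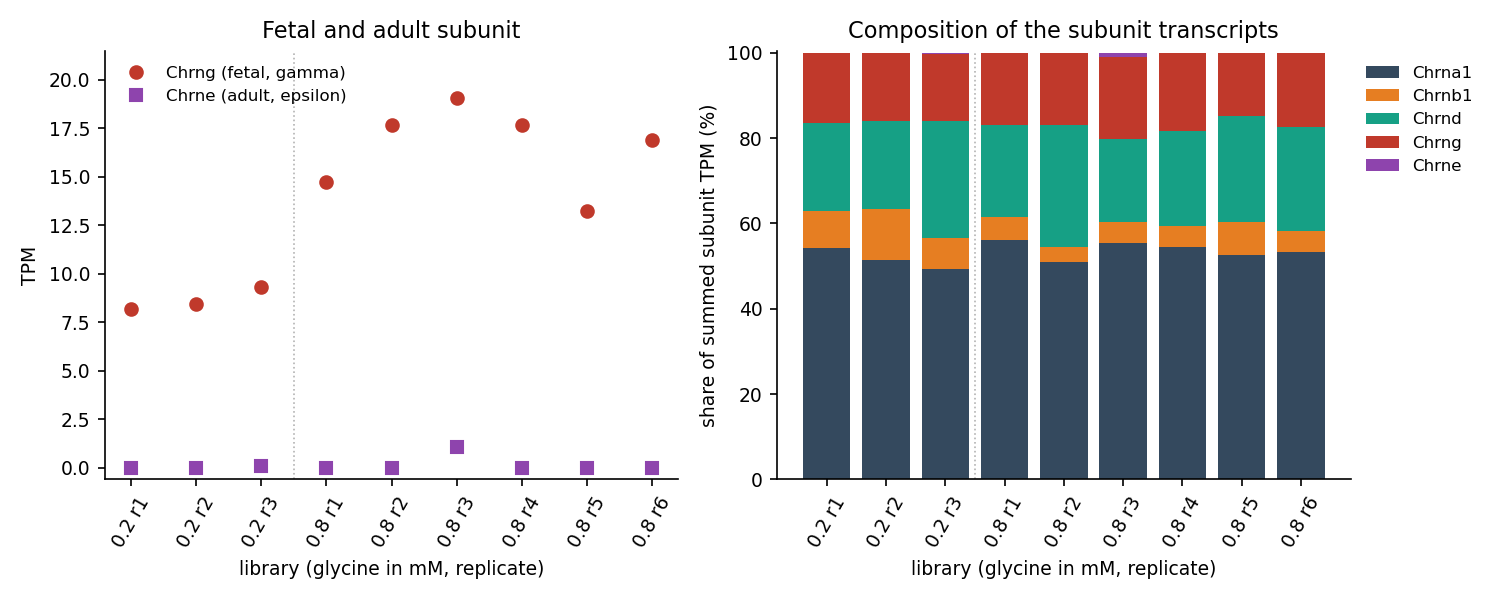
Left, TPM of the fetal subunit gene Chrng and the adult subunit gene Chrne in each library, on an axis that starts at 0. Right, the share of each subunit in the summed TPM of the 5 subunit genes, in percent, in the same libraries. Chrng lies above Chrne in 9 of 9 libraries, and the share of Chrnb1 averages 9.28% at 0.2 mM and 5.22% at 0.8 mM.

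The 5 subunit genes summed to 53.7 ± 4.58 TPM at 0.2 mM (SD, n = 3) and 95.8 ± 6.42 TPM at 0.8 mM (SD, n = 6). Alpha held 51.7 ± 2.53% of the sum at 0.2 mM and 53.8 ± 1.93% at 0.8 mM, delta 22.9 ± 3.92% and 23.6 ± 3.14%, and gamma 16.1 ± 0.325% and 17.2 ± 1.48%. Beta held 9.28 ± 2.47% and 5.22 ± 1.35%. The alpha to gamma ratio of TPM was 3.20 ± 0.0959 at 0.2 mM and 3.14 ± 0.251 at 0.8 mM, and the alpha to delta ratio was 2.31 ± 0.448 and 2.33 ± 0.377, in both cases a difference smaller than the spread between libraries. The alpha to beta ratio was 5.81 ± 1.35 at 0.2 mM and 10.8 ± 2.37 at 0.8 mM, and its groups did not overlap.

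The log2 ratios of the 6 pairs of alpha, beta, delta and gamma were compared between the groups, a comparison chosen after the values were seen. Alpha against beta differed by 0.87 (two-sided exact permutation p = 0.0238, 0.0952 adjusted over the 6 pairs). Beta against delta differed by -0.83 and beta against gamma by -0.85 (exact permutation p = 0.0476 for each, 0.0952 adjusted). The 3 pairs without beta differed by 0.04, 0.02 and -0.02 (exact permutation p from 0.762 to 0.857). After adjustment 0 of the 6 pairs passed. The smallest p possible here, 0.0238, does not pass for 1 pair alone once adjusted over 6. The test thus had little room to pass, and it does not decide whether the beta subunit responded differently.

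Of the genes that assemble the receptor patch, rapsyn rose by about as much as the alpha, delta and gamma subunits. Rapsn (chromosome 2, 91035620 to 91045729, plus strand) was at 7.27, 6.49 and 8.46 TPM at 0.2 mM, and at 0.8 mM the lowest was 11.5, the median 13.5 and the highest 15.8 TPM. The groups did not overlap. The mean rose from 7.41 ± 0.989 (SD, n = 3) to 13.6 ± 1.60 TPM (SD, n = 6), 1.83 times, a change of 0.79 on the log2 scale (SE 0.12, adjusted p = 0.000563 by limma). The ratio of Chrna1 to Rapsn TPM was 3.77 ± 0.381 at 0.2 mM and 3.84 ± 0.505 at 0.8 mM. Exons of Rapsn share 4 bases with those of Gm13778 on the opposite strand, a gene listed at no more than 0.586 TPM.

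MuSK, the kinase that agrin signalling switches on, was present at a low level. Musk (chromosome 4, 58285960 to 58374303, plus strand) was at 1.64, 2.29 and 1.90 TPM at 0.2 mM, and at 0.8 mM the lowest was 2.60, the median 3.17 and the highest 4.54 TPM. The groups did not overlap, though replicate 2 at 0.2 mM lay close to the lowest 0.8 mM libraries. The mean rose from 1.94 ± 0.329 (SD, n = 3) to 3.37 ± 0.779 TPM (SD, n = 6), 1.73 times, a change of 0.56 on the log2 scale (SE 0.17, adjusted p = 0.0306 by limma). The call was lost without 0.2 mM replicate 1 (0.118), without 0.2 mM replicate 3 (0.0842), without 0.8 mM replicate 1 (0.0520) and without 0.8 mM replicate 6 (0.0556). It was also lost with median ratio scaling (0.0543), quantile normalization (0.0656) and no filter (0.0668).

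DOK7, the adaptor that dimerizes and activates MuSK, did not pass. Dok7 (chromosome 5, 35056766 to 35087839, plus strand) was at 0.981, 1.02 and 1.46 TPM at 0.2 mM, and at 0.8 mM the lowest was 1.27, the median 1.52 and the highest 2.03 TPM. The groups overlapped through 0.2 mM replicate 3. The means were 1.15 ± 0.265 (SD, n = 3) and 1.62 ± 0.292 TPM (SD, n = 6), a change of 0.28 on the log2 scale (SE 0.15, 95% interval -0.04 to 0.61, adjusted p = 0.187 by limma).

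Agrin, the ligand of the pathway, which nerve and muscle both make, was the gene with lower values at 0.8 mM. Agrn (chromosome 4, 156165290 to 156197488, minus strand) was at 7.80, 6.06 and 5.31 TPM at 0.2 mM, and at 0.8 mM the highest was 5.25, the median 4.73 and the lowest 4.54 TPM. The groups did not overlap, but the lowest 0.2 mM library, replicate 3, lay just above the highest 0.8 mM library. The means were 6.39 ± 1.28 (SD, n = 3) and 4.82 ± 0.283 TPM (SD, n = 6), a change of -0.33 on the log2 scale (SE 0.12, adjusted p = 0.0668 by limma). Without 0.2 mM replicate 1, the highest library, the change was -0.20 (adjusted p = 0.297 by limma). The threshold was passed with median ratio scaling (0.0280), quantile normalization (0.0289) and library weights (0.0436), and without 0.2 mM replicate 3 (0.0372). Which splice form of agrin was made cannot be read from a gene-level table.

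Lrp4, the agrin receptor (chromosome 2, 91457511 to 91513779, plus strand), was below 1 TPM in every library. Lrp4 was at 0.181, 0.219 and 0.0164 TPM at 0.2 mM, and at 0.8 mM the lowest was 0.133, the median 0.205 and the highest 0.642 TPM. The groups overlapped, and without a filter the adjusted p was 0.515 (limma).

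**Figure D3:**
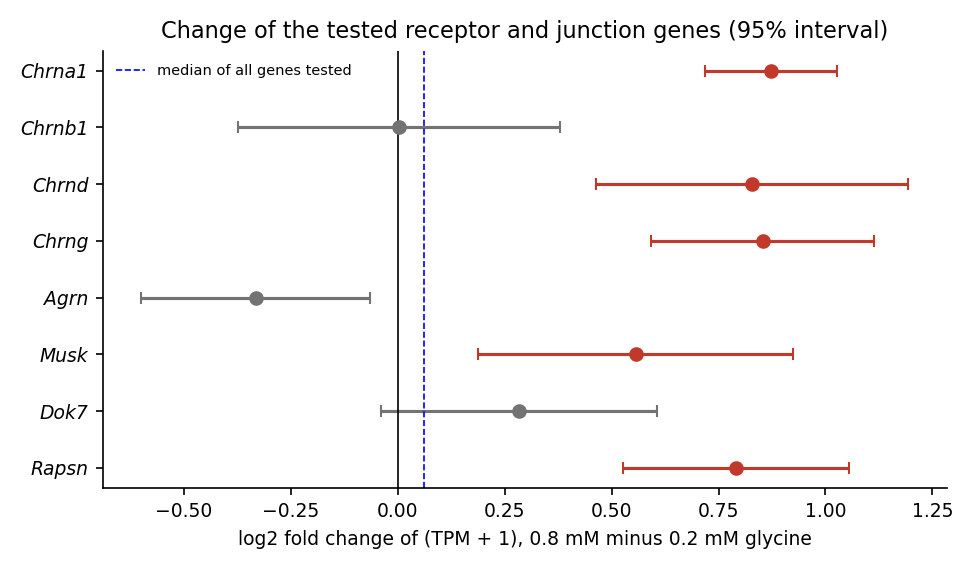
Change in log2(TPM + 1) from 0.2 to 0.8 mM glycine (horizontal axis) for the 8 genes tested, with 95% intervals from the limma fit. Genes that passed are red, the others grey, and the dashed line is the median of all 10049 genes tested (0.06). Chrna1, Chrnd, Chrng and Rapsn lie between 0.79 and 0.87, Musk at 0.56, and the interval of Chrnb1 covers 0.

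By mean level at 0.2 mM the order was Chrna1, Chrnd, Chrng, Rapsn, Agrn, Chrnb1, Musk, Dok7, Lrp4 and Chrne. Of the neighbours in this order, Chrng and Rapsn, Rapsn and Agrn, Agrn and Chrnb1, and Lrp4 and Chrne overlapped between libraries. At 0.8 mM Chrnb1 stood before Agrn in an otherwise equal order. There Chrnd and Chrng, Chrng and Rapsn, Chrnb1 and Agrn, and Lrp4 and Chrne overlapped.

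The neuronal subunits of the nicotinic receptor family were close to undetected. All 11 were under 1 TPM in every library, their levels summed to at most 0.111 TPM, and 7 of them (Chrna3, Chrna5, Chrna6, Chrna9, Chrna10, Chrnb3 and Chrnb4) were listed at 0 throughout. Of 11 genes of acetylcholinesterase and the synaptic basal lamina, 6 could be tested, of which 1 rose, 0 fell and 5 did not pass. That count is near the shares of all genes tested (16.7% rose and 9.81% fell). The median change of the list was 0.22 (0.12 without 0.2 mM replicate 2), against 0.06 for all genes tested. The 1 that rose was Nid2, a nidogen of the synaptic basal lamina, from 1.88 ± 0.192 to 3.90 ± 0.275 TPM (limma adjusted p = 0.000429). Ache, the enzyme that breaks down acetylcholine, was under the filter at 0.231 ± 0.146 and 0.526 ± 0.353 TPM, and its collagen anchor Colq at 0.191 ± 0.0736 and 0.137 ± 0.113 TPM, both named after their values were seen.

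Several scaffold genes of the postsynaptic membrane, among them partners of utrophin, the relative of dystrophin, rose. Of 13 in the list, 11 could be tested, and 8 rose, 0 fell and 3 did not pass. Over all genes tested 16.7% rose and 9.81% fell. The median change of the list was 0.73, against 0.06 for all genes tested. Of the 8, Sntb1 is named after its values were seen. It was at 0.701 to 1.01 TPM at 0.2 mM and at 1.49 to 2.52 TPM at 0.8 mM. It met the filter through the 0.8 mM libraries, and its call is not counted as support. The 8 and the median include it. Nes, the intermediate filament protein nestin, rose from 11.8 ± 0.966 to 31.8 ± 2.93 TPM (limma adjusted p = 2.01e-06). Dag1, dystroglycan, rose from 7.997 ± 0.786 to 19.4 ± 1.76 TPM, and Plec, the linker plectin, from 13.0 ± 0.683 to 19.3 ± 1.85 TPM. Utrn, utrophin itself, is named after its values were seen and rose from 4.07 ± 1.66 to 7.26 ± 0.780 TPM (limma adjusted p = 0.0150).

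Of 24 genes of MuSK partners and downstream signalling, 23 could be tested, and 5 rose, 1 fell and 17 did not pass. These shares are near those of all genes tested (16.7% rose and 9.81% fell). The median change of the list was 0.09, against 0.06 for all genes, and 0.05 without 0.2 mM replicate 2 or replicate 3. Cdc42, a small GTPase of actin remodelling, rose by 0.30 on the log2 scale, the chaperone gene Hsp90ab1 by 0.35 and Clasp2, which captures microtubules at receptor clusters, by 0.46. Hsp90ab1 was not called with median ratio scaling (0.0630) or quantile normalization (0.863), Cdc42 not with quantile normalization (0.0681) and Clasp2 not without 0.2 mM replicate 2 (0.0703). Dnaja3, which encodes a MuSK-binding co-chaperone, fell from 5.09 ± 0.196 to 3.34 ± 0.600 TPM (limma adjusted p = 0.0202), a call lost without 0.2 mM replicate 1, 2 or 3 (0.0524, 0.0634 and 0.0707). The others that rose, named after their values were seen, were Pak1 by 0.47 and Ptpn11 by 0.35. With single libraries left out, the list held between 3 calls (without 0.2 mM replicate 2) and 7. It held 1 call in libraries 1 to 3 of each group, with or without the replicate number as a block. When a change of at least 1.5-fold was also asked for, it held 0. With median ratio scaling 3 rose and 2 fell, and the median was 0.017.

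In the neuregulin and GABP list, which holds the pathway once proposed to drive transcription at the synapse, 6 of 10 could be tested. Of these 0 rose, 1 fell and 5 missed the threshold. Among all genes tested 16.7% rose and 9.81% fell, and 1 call among 6 genes is too few to set against these shares. The median change of the list was -0.22 (-0.14 without 0.2 mM replicate 2), against 0.06 for all genes tested. The 1 that fell was Gabpb1, the beta subunit of the N-box factor, from 3.59 ± 0.997 to 2.08 ± 0.342 TPM (limma adjusted p = 0.0307). It was not called without 0.2 mM replicate 1 (0.130), 0.2 mM replicate 2 (0.135), 0.8 mM replicate 3 (0.0544) or 0.8 mM replicate 6 (0.0527).

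Among 20 transcriptional regulators of receptor genes, 15 could be tested, and 6 rose, 0 fell and 9 did not pass. Of all genes tested 16.7% rose and 9.81% fell. The median change of the list was 0.35, against 0.06 for all genes tested. Myog, myogenin, rose from 247 ± 16.9 to 523 ± 41.2 TPM (limma adjusted p = 1.79e-06) and Myod1, MyoD, from 35.7 ± 4.55 to 69.3 ± 5.70 TPM. Mef2d, a cofactor of these proteins, rose from 4.27 ± 0.385 to 6.91 ± 0.535 TPM. Id1, which keeps myogenic factors from binding DNA, rose from 5.79 ± 0.126 to 11.7 ± 2.73 TPM, so activators and an inhibitor of E-box binding were both among the 6.

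Receptor subunits fold and assemble in the endoplasmic reticulum, and of 13 genes of this step 11 could be tested. Of these 4 rose, 0 fell and 7 missed the threshold, where 16.7% of all genes tested rose and 9.81% fell. The median change of the list was 0.15, against 0.06 for all genes tested. Calr, the lectin chaperone calreticulin, rose from 69.5 ± 3.69 to 241 ± 14.1 TPM (limma adjusted p = 1.82e-08), Hspa5, the chaperone BiP, from 53.3 ± 2.24 to 104 ± 3.65 TPM, and Pdia3, a disulfide isomerase, from 233 ± 19.0 to 490 ± 35.3 TPM. Gmppb, which makes the GDP-mannose used in glycosylation, rose from 2.11 ± 0.128 to 7.03 ± 1.24 TPM. All 12 genes of an early muscle differentiation list rose, where 16.7% of all genes tested did, with a median change of 1.54. Among the 4 with the smallest p the changes ran from 1.43 for Mylpf to 2.02 for Tnnt2 and Acta1 and 2.54 for Actc1. Of the 12, Myh8 reached the filter only through the 0.8 mM libraries, and its call is not counted as support. The 12 and the median include it, and this list, like the others, was chosen with earlier results of these data known. That median was larger than the change of any of the 8 genes tested among the 10 followed here, the largest being 0.87 for Chrna1. Tnnc1 (0.690), Myl4 (0.809) and Mymx (0.868) of the same list, named after their values were seen, changed no more than Chrna1 (0.873). The rest of that list changed more.

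**Figure D4:**
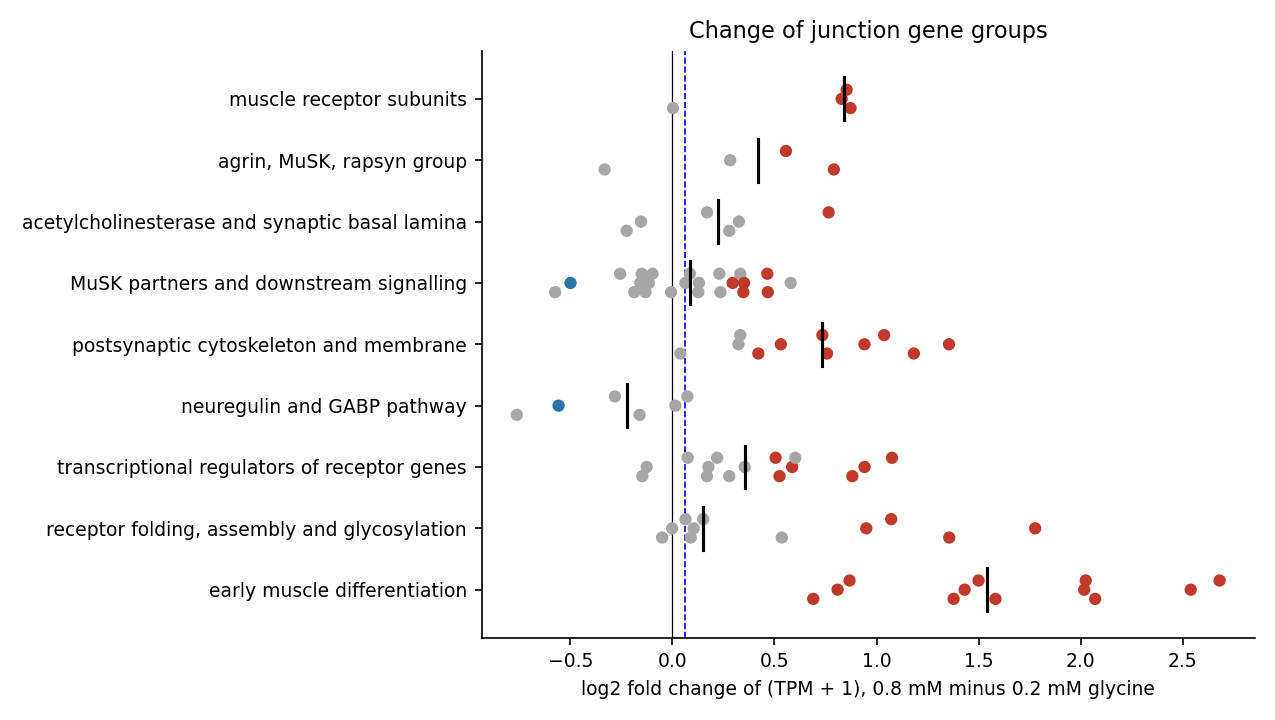
Change in log2(TPM + 1) from 0.2 to 0.8 mM glycine for each tested gene of the lists, 1 list per row, with genes that rose in red, genes that fell in blue, genes that did not pass in grey and the median of each list as a black tick. The dashed line is the median of all genes tested, 0.06. Medians run from -0.22 for the neuregulin and GABP list to 1.54 for early muscle differentiation.

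Markers of several cell types moved between the groups beside these genes, where 16.7% of all genes tested rose and 9.81% fell. Of 7 myoblast markers, all detected, 5 rose (Myod1, Myf5, Des, Cdh15 and Itga7), Vcam1 fell and Pax7 did not pass, and their summed level ran from 183 to 218 TPM at 0.2 mM and from 435 to 529 TPM at 0.8 mM. Of 6 fibroblast markers, Pdgfra, Col1a1, Col1a2 and Ly6a rose and Dcn and Dpt did not pass, with sums of 2178 to 2526 and 2505 to 3019 TPM. Of 7 macrophage markers, Lyz2 and Cd14 rose, Itgam reached the filter only through the 0.8 mM libraries, Cd68 fell and Ptprc, Adgre1 and Csf1r did not pass, with sums of 784 to 857 and 972 to 1354 TPM. The part of these cell types in the results was not tested.

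Of 4 endothelial markers 2 were under the filter, and Pecam1 and Cdh5 reached it only through the 0.8 mM libraries, with 0.2 mM libraries at no more than 0.918 and 0.875 TPM, so their calls are not counted. The 4 had sums of 1.82 to 2.10 and 3.99 to 5.70 TPM. Of 7 motor neuron markers 0 reached the filter, Chat, Slc18a3, Slc5a7, Mnx1 and Snap25 were listed at 0 in every library, and the sum was at most 0.430 TPM. The marker genes named here were fixed as lists, and those singled out were named after their values were seen.

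The genes whose profiles over the 9 libraries were most like those of Chrna1, Chrng and Musk were ranked by the root mean square difference of log2(TPM + 1), each profile centred on its own mean, among genes with a mean of at least 5 TPM. For Chrna1 these were Pfn1 (profilin) at 0.0479, Slc25a4 (a mitochondrial nucleotide carrier) at 0.0497, Uqcc2 and Ppia (cyclophilin A) at 0.0499 each and Myl4 (a myosin light chain) at 0.0546. For Chrng they were Uqcc2 at 0.0675, Chrna1 at 0.0787, Bin1 at 0.0842, Myod1 at 0.0897 and Mybph at 0.105. Chrna1 was thus second in the list for Chrng, out of 4467 candidates. For Musk the nearest profiles were less close, with Ppih at 0.114, Mrpl53 at 0.137, Slc6a6 and Lta4h at 0.139 each and Atp5g1 at 0.145. The measure rests on 9 libraries in 2 groups, so a gene with a like step between the groups ranks high.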

How the data were processed

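Per the labels' protocols, Trizol RNA went into Illumina TruSeq libraries. The submitters' processing notes name HISAT2 2.0.5, StringTie 1.3.3, DESeq2 and the build mm10, with no settings and nothing on strand. The authors deposited TPM for 53715 gene IDs in 9 libraries, each column summing to 1000000, so an abundant RNA lowers all other values. Depth is unknown, so precision comes from the spread between libraries.

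Groups were taken from the labels. Glycine levels were compared on log2(TPM + 1) by limma 3.58.1 (R 4.3.3), two-sided, with a variance trend, and p-values were adjusted by Benjamini-Hochberg over the 10049 genes that had at least 1 TPM in at least 3 libraries. Ratios were compared by two-sided exact permutation over 84 splits, where the smallest p is 0.0238. The fit was tested on simulated data. Positions are from GENCODE M21 (GRCm38), in which 53620 IDs matched without their version, and 5 list genes were matched by ID alone. The genes and lists were chosen with earlier results of these data known. The text names the 10 genes, up to 4 genes with the smallest p per list among those that passed, and the 5 closest profiles of Chrna1, Chrng and Musk; any others are marked as named after their values were seen. Some genes that this rule or a marker list names are not reported here. Alternatives were pseudocounts of 0.1 and 0.5, other filters and scalings, library weights, a 1.5-fold threshold, left-out libraries and the library number as a block. Figures were drawn with matplotlib 3.10.9.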

Additional observations from a re-analysis of the deposited data

Results flagged for a closer look

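Among the 6 libraries at 0.8 mM glycine, Chrnb1 in replicate 5 (6.88 TPM) stood apart from the others, with a gap to the nearest library of 0.627 of the group's range, just above Dixon's critical value for 6 libraries. Without that library the log2 fold change of Chrnb1 was -0.082 and it did not pass (limma adjusted p = 0.744). Chrne in 0.8 mM replicate 3 (1.08 TPM) stood apart by 1.0 of the range, since the other libraries of that group were all listed at 0. Of 11 measures examined in this way these 2 were marked, and chance marks about 1 in 20.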

How the results depend on the processing

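Over 23 alternatives Chrna1, Chrng and Rapsn kept their call and direction. The count of all genes that passed was 2669 and fell to 1636 when a change of at least 1.5-fold was also asked for. Of the 10 genes, 5 passed, and 4 to 5 did with single libraries left out. Library numbers 1 to 3 occur in both groups, but deviations of same-numbered libraries correlated at 0.0383, 0.0023 and 0.107, so the numbers were not taken to pair the libraries. With the replicate number as a block 3 of the 10 genes passed, and Chrnd (0.0584) and Musk (0.0925, limma adjusted p) did not, where 4 passed in the same 6 libraries without the block. The difference in the Chrng to Chrne log2 ratio, 0.72, missed the threshold at pseudocounts of 0.1 (0.65) and 0.5 (0.70), with median ratio scaling (0.65), quantile normalization (0.64), without ribosomal RNA genes (0.68), and in libraries 1 to 3 with or without the replicate block (0.60 for each, where the smallest possible p is 0.25 and 0.1). It lay between 0.67 and 0.86 with single libraries left out. The Chrnb1 change turned to -0.068 with median ratio scaling, -0.060 with quantile normalization, -0.030 without ribosomal RNA genes and -0.13 in libraries 1 to 3 with or without the replicate block, and lay between -0.082 and 0.16 with single libraries left out. The cause of these changes was not tested. The lists held 38 calls in all, those of Myh8 and Sntb1 included, and between 27 and 40 under the alternatives. Of these 2 were falls, with 4 with median ratio scaling, 6 with quantile normalization and 0 without 0.2 mM replicate 1 or 2. With median ratio scaling and quantile normalization the median of the MuSK partners was 0.017 and 0.013 and that of the folding list 0.080 and 0.088. With a filter of a mean of at least 5 TPM the folding median was 0.343 and that of the basal lamina list 0.063. With no filter the median of the transcriptional regulators was 0.198. Depth is unknown, so for Chrne and Lrp4 no limit of detection can be given.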

Other observations

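Within the 0.8 mM group, replicate 3 held the highest level of Chrna1 (55.1 TPM), Chrng (19.1 TPM), Musk (4.54 TPM), Lrp4 (0.642 TPM) and Chrne (1.08 TPM), and the lowest of Rapsn (11.5 TPM). Replicate 5 held the lowest level of Chrna1 (47.1 TPM) and Chrng (13.2 TPM) and the highest of Chrnb1 (6.88 TPM), Dok7 (2.03 TPM) and Agrn (5.25 TPM). These orders within a group were noticed in the values and were not tested.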
